A study of Caenorhabditis elegans with 2 samples.

Results

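The 297 regions described here are places inside introns, away from promoters, where DNA recovered with GFP-tagged LIM-6 from late embryos of Caenorhabditis elegans gave a high signal. They were selected on signal, the strength value that the authors gave each region in a list made from both libraries pooled. That list holds peaks together with background. A region was taken when its signal was 50 or more, when its summit (its point of highest signal) lay within the span of a protein-coding gene but in no exon of one, and when it lay outside a window from 1000 bp upstream to 500 bp downstream of every protein-coding transcript 5′ end. Summits within 250 bp of a tRNA gene, or 500 bp of a snoRNA or snRNA gene, were left out. The pooled list held 25887 regions, of which 2129 (8.22%) had a signal of 50 or more. Of the 5742 regions with an intronic summit away from promoters, 297 (5.17%) did. Since signal chose them, nothing is read from that share. The other 5445, called the weaker intronic regions, served as the main comparison, beside 428 distal intergenic and 1027 promoter regions at the same signal. How many of the weaker regions are background is not known.

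The study measured 1 group. Chromatin came from whole embryos of strain OP388, with the genotype unc-119(ed3) III; wgIs388, collected 5 hours after synchronization by bleaching and labelled hermaphrodite and late embryonic. The line stably expresses LIM-6 with a GFP-FLAG tag at the C terminus, the antibody was directed against GFP, and the 2 libraries are numbered as biological replicates. No untagged strain, other stage or other genotype was part of the comparison, so every value is a level in 1 strain at 1 stage. Signal from binding of LIM-6 and signal from accessible DNA in general cannot be told apart here. Whole embryos were used, so strong signal from a few cells and weak signal from many cannot be told apart.

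LIM-6 is a LIM homeodomain transcription factor. Proteins of this family read AT-rich DNA with the homeodomain and hold cofactors of the LIM domain-binding (Ldb) type with the paired LIM fingers. In C. elegans, lim-6 is known for the differentiation of a subset of GABA-producing neurons and for left-right asymmetry of the ASE taste neurons. Introns of C. elegans are mostly short, and long introns are known to hold enhancers, regulatory stretches that act at a distance from the start of a gene. GAGA-type repeats are a common feature of open, broadly bound regulatory DNA in flies and worms.

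Sequences of 101 bases centred on the summit show what kinds of DNA made up the set. All are read 5′ to 3′ on the forward strand of the ce11 assembly, from the WBcel235 reference sequence. Members with a GA repeat near the summit, of which 4 with high signals are shown, lay in introns of mdt-26 (a Mediator subunit), larp-1 (a La-related RNA-binding protein), F09A5.3 and ldb-1 (the Ldb cofactor of LIM homeodomain proteins). Capitals mark GAGAGA or its reverse complement.
mdt-26, chrII:5661827-5661927: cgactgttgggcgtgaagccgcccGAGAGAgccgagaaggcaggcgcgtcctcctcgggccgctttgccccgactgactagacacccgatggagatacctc
larp-1, chrIII:5014095-5014195: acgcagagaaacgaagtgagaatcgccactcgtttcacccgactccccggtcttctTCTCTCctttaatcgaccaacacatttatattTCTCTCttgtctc
F09A5.3, chrX:13145267-13145367: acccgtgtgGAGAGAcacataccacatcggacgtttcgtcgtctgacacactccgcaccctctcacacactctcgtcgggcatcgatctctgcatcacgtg
ldb-1, chrX:11031352-11031452: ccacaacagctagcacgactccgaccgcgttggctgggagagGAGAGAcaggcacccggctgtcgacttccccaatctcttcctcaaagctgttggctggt

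Members with TAATTA, the core of many homeodomain sites, included both of the strongest regions of ptb-1 (a polypyrimidine tract-binding protein), 1 in noca-1 (a protein of non-centrosomal microtubule arrays) and 1 in ptp-3 (a LAR-type receptor tyrosine phosphatase). Here capitals mark TAATTA, which reads the same on both strands. The ptp-3 stretch also holds the reverse complement of GAGAGA, left in lower case. The member in Y105C5A.1, not printed, held both hexamers too.
ptb-1, chrII:10681958-10682058: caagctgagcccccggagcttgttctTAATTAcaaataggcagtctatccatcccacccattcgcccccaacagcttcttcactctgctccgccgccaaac
ptb-1, chrII:10684880-10684980: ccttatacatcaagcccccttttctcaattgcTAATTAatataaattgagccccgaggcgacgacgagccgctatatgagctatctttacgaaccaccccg
noca-1, chrV:13170531-13170631: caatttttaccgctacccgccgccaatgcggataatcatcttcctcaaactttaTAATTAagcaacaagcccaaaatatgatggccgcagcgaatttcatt
ptp-3, chrII:11000838-11000938: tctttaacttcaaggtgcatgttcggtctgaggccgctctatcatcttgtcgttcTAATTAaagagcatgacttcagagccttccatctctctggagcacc

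Neither hexamer lay in the printed stretch of the member in hmt-1 (a transporter of heavy-metal tolerance, the third strongest of all), nor in that of F38B6.6. The same held for the members in unc-25, which encodes the GABA-synthesizing enzyme glutamate decarboxylase, and in lim-6 itself.
hmt-1, chrIII:11091825-11091925: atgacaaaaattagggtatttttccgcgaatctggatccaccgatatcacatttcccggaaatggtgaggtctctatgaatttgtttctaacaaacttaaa
F38B6.6, chrX:6687832-6687932: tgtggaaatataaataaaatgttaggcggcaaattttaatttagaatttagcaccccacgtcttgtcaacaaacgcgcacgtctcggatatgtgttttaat
unc-25, chrIII:12944780-12944880: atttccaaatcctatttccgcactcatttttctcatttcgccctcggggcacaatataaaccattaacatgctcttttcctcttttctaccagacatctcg
lim-6, chrX:1077068-1077168: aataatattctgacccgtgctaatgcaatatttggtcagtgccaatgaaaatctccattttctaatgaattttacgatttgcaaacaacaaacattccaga

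Signals ran from 50.03 to 206 with a median of 59.9. Of the 297 members, 151 (50.8%) lay between 50 and 60, and 12 reached 100 or more. The strongest lay in intron 5 of W05H12.1, with a pooled signal of 206, a signal of 109 in replicate 1 and 93.8 in replicate 2. Next came the region in intron 5 of ints-8, a subunit of the Integrator complex, with 186 pooled, 104.8 in replicate 1 and 80.4 in replicate 2, and with its summit inside rpr-1, the gene of the ribonuclease P RNA. In hmt-1 the pooled signal was 173, with 84.1 in replicate 1 and 88.3 in replicate 2. These 3 stood above every other member in both libraries. The region in mdt-26 had a pooled signal of 140, with 81.0 in replicate 1 and 60.1 in replicate 2.

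The region in F38B6.6 had a pooled signal of 131, with 55.3 in replicate 1 and 73.7 in replicate 2. From there the ranking was flat. The next member, in larp-1, had 108, and that of rank 20, in T18D3.9, had 95.7. Between them lay srt-52 (a serpentine receptor, 106), ptb-1 (105.4), mom-1 (the Porcupine homologue needed for Wnt secretion, 103.8), F09A5.3 (103.4), ccm-2 (101.6) and Y105C5A.1 (100.7). Lower in that range were tbc-9 (98.5), ldb-1 (98.3), klp-6 (a kinesin of the kinesin-3 family, 98.1, where 37.4% of 31-mers are unique in the genome), trpa-1 (a TRP channel, 97.4), F14F7.5 (97.01), csnk-1 (a casein kinase of the gamma type, 96.5) and Y45G5AM.9 (96.2). All of these 20 were also in the authors' list of reproducible peaks, which held 55 of the 297 members. Since that list is the top of the same ranking, with a lowest signal of 80.03 among members, it adds no separate evidence. In all, 18.5% of the intronic members were in it, against 15.2% of distal intergenic and 32.7% of promoter regions at signal 50 or more.

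Signals were continuous across the threshold. The last 3 members inside lay in Y48C3A.5 (50.19), nekl-1 (50.16) and ZK1073.2 (50.03), and the first 3 outside in pqn-84 (49.97), egl-4 (49.96) and kcnl-1 (49.96).

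Both libraries held nearly all members. The relaxed list of replicate 1 had 21953 regions with a median signal of 16.6, and 295 members overlapped 1 of them. The list of replicate 2 had 27731 regions with a median of 15.9, and 296 members overlapped 1. Member signals ran from 12.9 to 109 with a median of 30.2 in replicate 1, and from 12.5 to 93.8 with a median of 31.1 in replicate 2. Among the 2129 strongest regions of each library, 204 members (68.7%, exact 95% interval 63.1 to 73.9) were found for replicate 1 and 184 (61.95%, 56.2 to 67.5) for replicate 2. Of the 297, 118 (39.7%) were in the top of both, 152 were in the top of 1 and 27 in the top of neither. Both libraries entered the pooled signal that chose the members, so their library values are a description and no separate support.

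**Figure D1:**
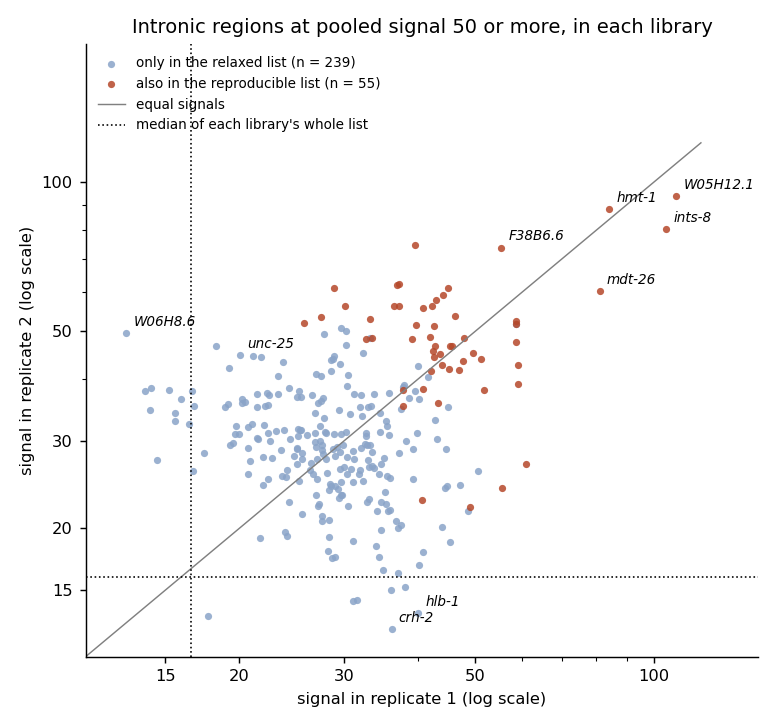
Signal of each of the 294 intronic members found in both libraries, replicate 1 on the x axis and replicate 2 on the y axis, both on log scales. Regions also in the reproducible list (red, 55) include W05H12.1, ints-8, hmt-1 and mdt-26 at the upper right, and dotted lines give the median of each library's whole list (16.6 and 15.9).

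For the 294 members with a region in both lists, the mean log2 ratio of replicate 1 to replicate 2 was -0.05 ± 0.60 (SD over regions). The ratio was above 0 in 137 of them and beyond 2-fold in 33. Signals were not scaled between the lists, so a ratio also holds any difference in scale between them. Over the 12026 pooled regions with a region in both lists, the mean log2 ratio was 0.006 ± 0.53. For promoter regions at the same signal it was -0.07 ± 0.62 and for weaker intronic regions 0.03 ± 0.48. The most uneven members were in W06H8.6 (12.9 in replicate 1 and 49.5 in replicate 2), pes-4 (13.8 and 37.8) and K01F9.2 (14.2 and 38.4) with replicate 2 the higher. With replicate 1 the higher were hlb-1 (40.04 in replicate 1 and 13.5 in replicate 2), crh-2 (36.1 and 12.5) and ajm-1, which encodes an apical junction protein (38.1 and 15.2). In each of these 6, the lower library stood below the median of its own list. Only 3 members lacked a counterpart in 1 list. In vhp-1 (53.9 pooled, 39.8 in replicate 2) and lim-6 (61.7 pooled, 55.1 in replicate 2) it was replicate 1 that had none, and in ubql-1 (52.5 pooled, 43.5 in replicate 1) it was replicate 2.

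The members sat in long introns. Their host intron had a median length of 2818 bp, against 1091 bp for weaker intronic regions, and 225 of 297 (75.8%, 70.5 to 80.5) lay in an intron of 1000 bp or more, against 53.4% (52.1 to 54.8). At a signal threshold of 80, read after seeing the data, the median was 2101 bp (n = 55 members), below that of the full set. The share of intronic regions at signal 50 or more was 1.14% in introns under 250 bp (7 members), 4.56% between 1000 and 1999 bp (51 members) and 9.57% at 10000 bp or more (36 members). Intervals here and below are exact Clopper-Pearson 95% intervals over regions and cover counting error only. Regions of the same pair of libraries are not replicates of a condition, so no test was made between groups of regions. The longest host intron, 19927 bp in Y48C3A.5, held a member with a signal of 50.2.

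**Figure D2:**
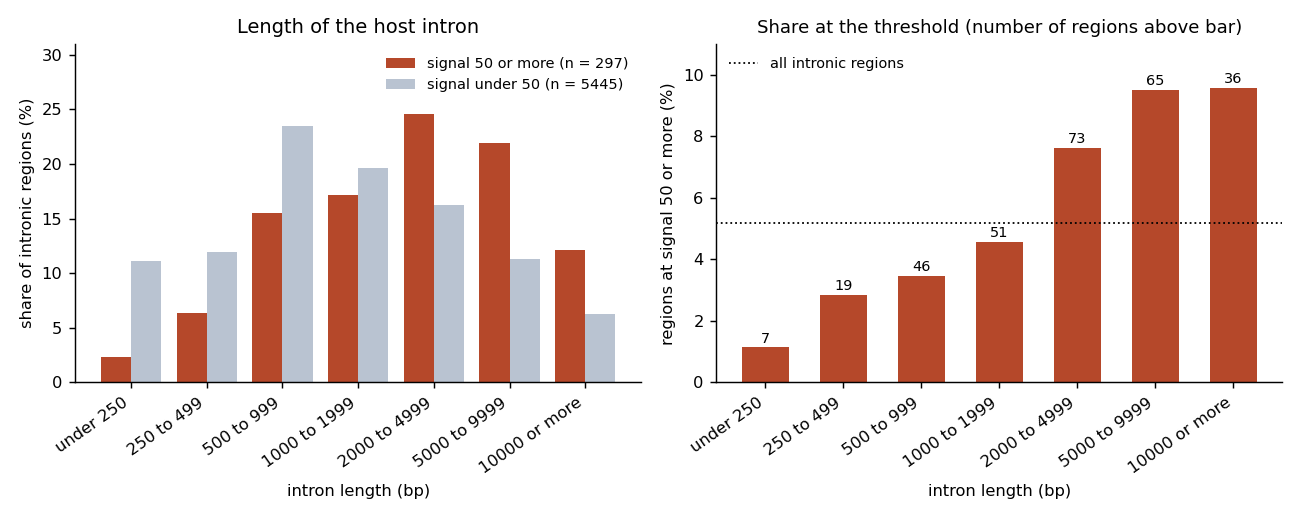
Left, share of the 297 intronic members (red) and of the 5445 weaker intronic regions (grey) by length of the host intron in bp. Right, share of all intronic regions of a length class with signal 50 or more, from 1.14% under 250 bp to 9.57% at 10000 bp or more, with the number of members above each bar and the share over all classes (5.17%) as a dotted line.

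Within the intron, members were at a median distance of 824 bp to the closest splice site, against 254 bp for the weaker regions. Part of this goes with intron length, since the medians were 1206 and 723 bp in introns of 1000 bp or more and 146 and 101 bp in shorter ones. A first intron of the longest transcript held 85 members (28.6%, 23.5 to 34.1), against 17.8% (16.8 to 18.9) of weaker regions. Among introns of 1000 bp or more the shares were 35.6% and 26.9%. Members in first introns included F09A5.3, Y105C5A.1 and csnk-1 among the strongest 20. Distance to the nearest protein-coding 5′ end differed little, with a median of 1970 bp for members and 1872 bp for weaker regions, and 77 members were 3000 bp or more from any. For 48 members the nearest 5′ end belonged to a gene other than the host. The region in hmt-1, for instance, lay 3388 bp from a 5′ end of W09D6.5, and the region of highest signal in ell-1 1372 bp from one of Y24D9A.6.

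The 297 members lay in 247 host genes, of which 211 had 1, 27 had 2 and 9 had 3 or more. Overlapping neighbours accounted for 13 pairs with summits a median of 205 bp apart, which left 284 separate sites. Counted once per region, host genes had a median length of 12837 bp for members and 8728 bp for the weaker regions. Clusters in a gene were thus partly single broad sites, so numbers of sites are given beside numbers of regions.

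ptb-1 held 5 members at 5 sites on chromosome II. Of these, 4 lay in the 6936-bp intron 6. Their pooled signals were 62.7, 105.4, 57.4 and 87.3 in the order of transcription. The libraries differed on which was strongest. The region at 10682008 had 39.5 in replicate 1 and 74.7 in replicate 2, and the region at 10684930 had 60.7 and 26.95. The member in intron 1 had 56.7, with 26.8 in replicate 1 and 29.9 in replicate 2.

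let-526, which encodes an ARID subunit of the SWI/SNF chromatin remodelling complex, held 5 members at 3 sites. A pair in intron 1 had 93.8 and 92.3, both matched to a single replicate 1 region of 59.1. In intron 4 a second pair had 84.9 and 60.7, and a lone region 1 bp from the splice site had 83.4, with 39.1 in replicate 1 and 48.1 in replicate 2. All 5 held GAGAGA within 100 bp of the summit.

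ell-1, named for the ELL family of transcription elongation factors, held 4 members at 3 sites, all in its 14129-bp first intron. The pooled signals were 93.5, 59.4, 68.2 and 69.9 in the order of transcription. In the strongest of them only 15.8% of 31-mers were unique in the genome, and 36.3% in its overlapping neighbour. Reads from other copies of that sequence could therefore count there. The remaining pair of sites was fully unique, with 29.6 and 42.9 in replicates 1 and 2 at the first and 39.2 and 28.9 at the second.

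**Figure D3:**
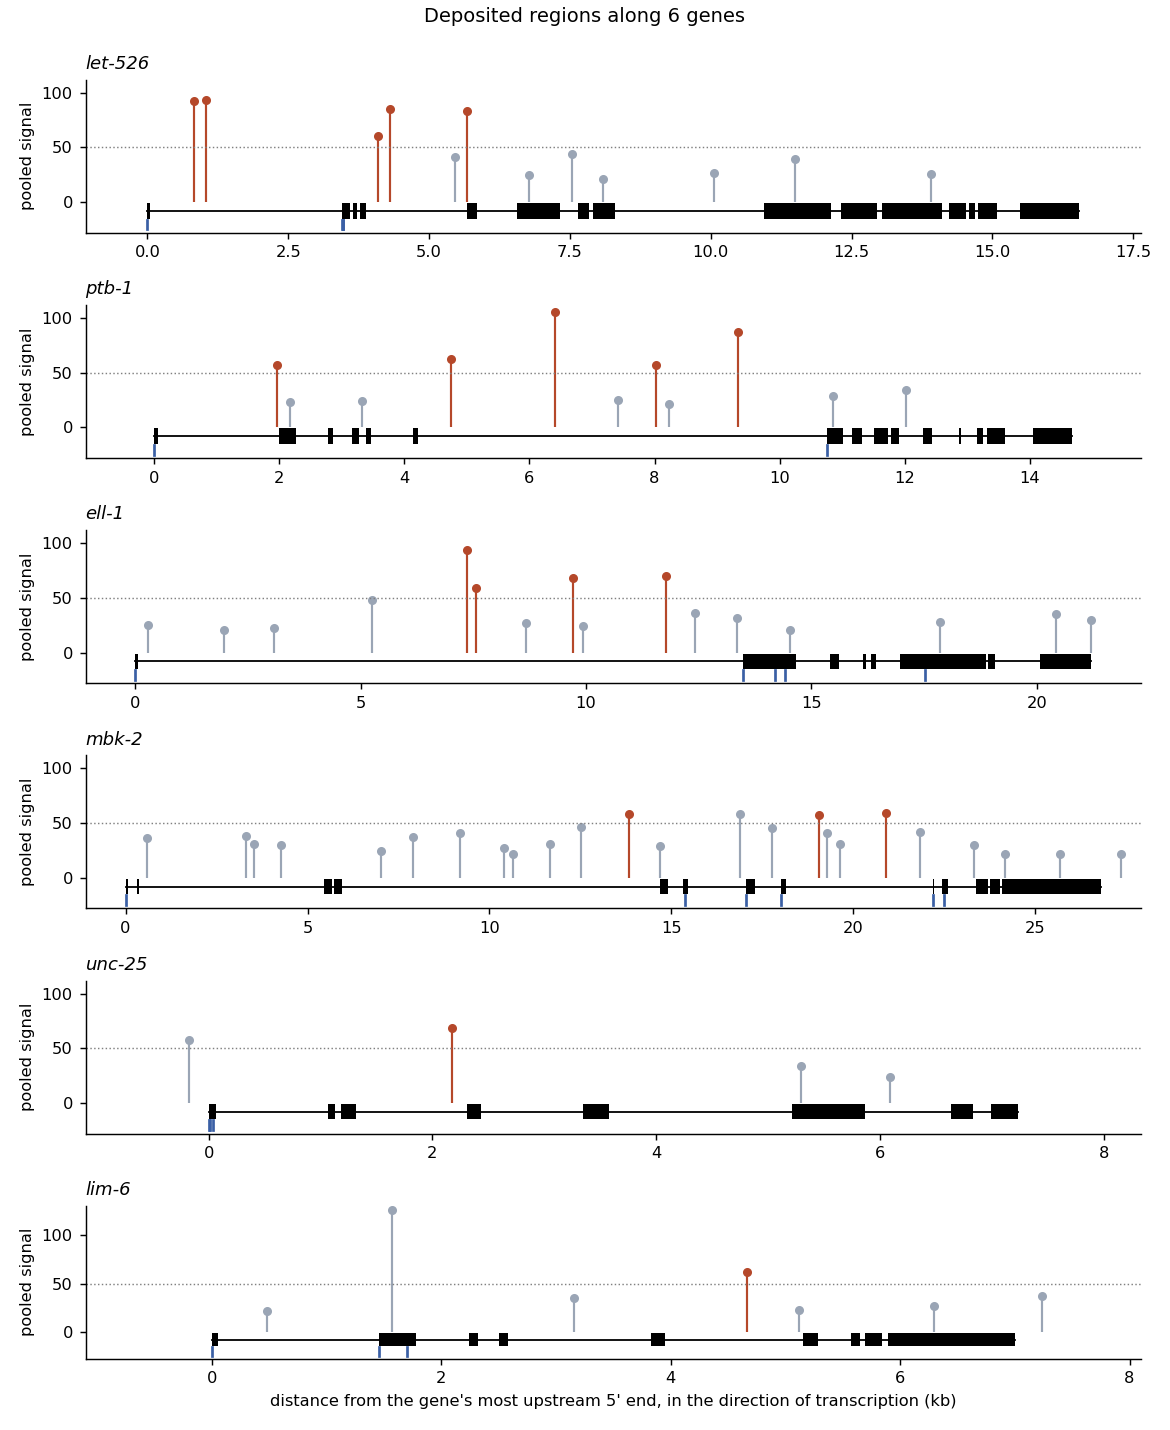
Deposited regions along 6 host genes, with the distance from the most upstream 5′ end on the x axis in kb and the pooled signal on the y axis. Red stems are intronic members, grey stems other pooled regions, black boxes exons, blue ticks annotated 5′ ends and the dotted line a signal of 50. The 5 members of ptb-1 and the 4 of ell-1 sit mainly in 1 long intron each, and the lim-6 member (61.7) lies downstream of a promoter region of 127.

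Each of the other 6 hosts of several regions had 3 members. daf-5, a Sno/Ski factor of the dauer pathway, had them at 3 sites in its 14446-bp first intron, with signals of 86.3, 58.4 and 54.3. pqn-41, a polyglutamine protein, had 77.8, 61.3 and 59.7 in 1 intron of 7776 bp. mbk-2, a kinase of the DYRK family, had 58.9, 58.7 and 57.6 at 3 sites, among 14 weaker intronic regions. mpz-1, a protein with many PDZ domains, had 66.0, 51.6 and 50.7. ppfr-1, a regulatory subunit of protein phosphatase 4, had 89.1, 72.8 and 60.7 at 2 sites, and F09A5.3 had 103.4, 95.2 and 51.4 at 2 sites.

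Summit sequence was richer in GC than its surroundings. The mean GC content of the 201 bp around the summit was 46.6 ± 7.60% (SD, n = 297 regions), against 36.8 ± 7.75% and 36.2 ± 7.76% in windows 500 bp to either side of the same summits. Weaker intronic summits had 39.3 ± 7.84%, distal intergenic members of the same signal 46.4 ± 6.78% and promoter regions 44.7 ± 7.95%. The share of intronic regions at signal 50 or more was 1.13% where GC content was under 35% and 15.5% where it was 50% or more. The part of base composition in the signal was not tested.

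GAGAGA, searched on both strands within 100 bp, was found at 109 members (36.7%, 31.2 to 42.5). It was found at 13.9% (13.0 to 14.8) of weaker intronic regions, 49.5% (44.7 to 54.4) of distal intergenic and 31.4% (28.5 to 34.3) of promoter regions at the same signal, and at 17.6% of all pooled regions. In the flanks of the members it was found in 15.2% and 8.75%. The match lay a median of 38.5 bp from the summit, and at W06H8.6, an uneven region between the libraries, it lay 0.5 bp from it. In introns of 1000 bp or more, 43.1% of members and 19.4% of weaker regions held it, and in shorter introns 16.7% and 7.61%. Within every one of 5 classes of GC content the members' share was higher, from 15.8% against 6.70% below 35% GC to 45.1% against 19.4% at 50% GC or more. The class below 35% GC held only 19 members, 3 of them with GAGAGA, so its share is imprecise.

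Relative to the host gene, GAGAGA lay on the strand opposite to transcription at 67 of the 109 members (61.5%, 51.7 to 70.6). It lay on the strand of the host at 31 and on both at 10. Among weaker intronic regions with the motif, 51.3% (47.7 to 54.9) had it on the opposite strand only. Members with GAGAGA sat in longer introns, with a median of 4309 bp against 1928.5 bp for members without it. Their median signals were 62.1 and 59.1.

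**Figure D4:**
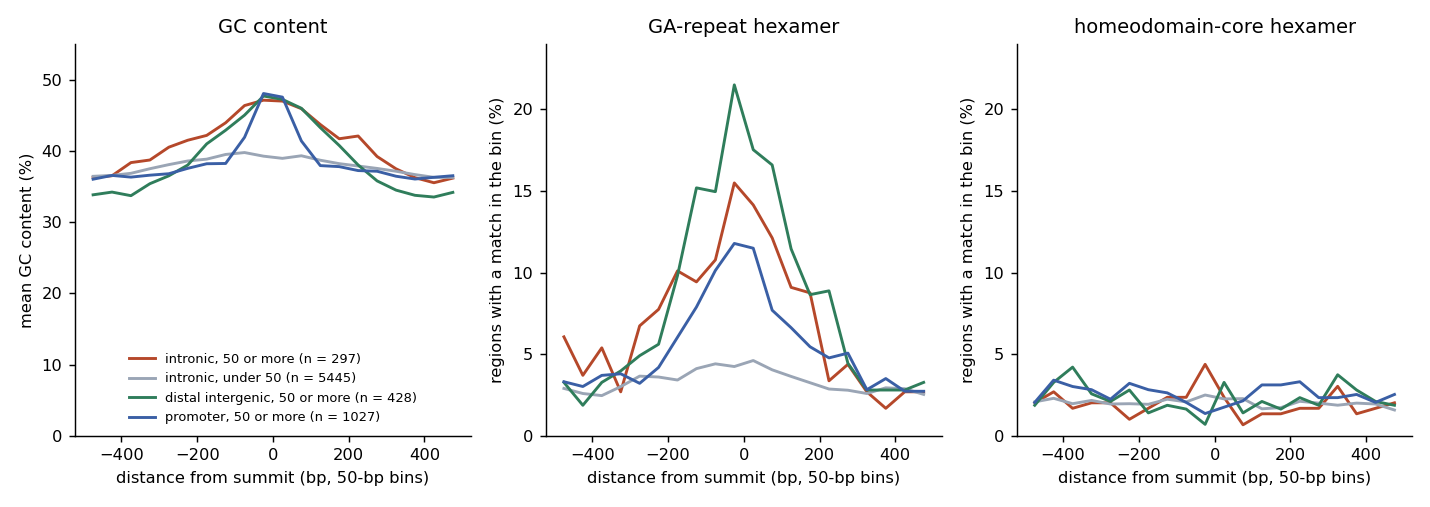
Mean GC content, share of regions with GAGAGA and share with TAATTA in 50-bp bins by distance from the summit, for intronic members (red, 297), weaker intronic (grey, 5445), distal intergenic (green, 428) and promoter regions (blue, 1027). GAGAGA is centred on the summit of the members, 15.5% in the bin before the summit, while TAATTA is at 4.38% there and between 0.673% and 3.03% in the other bins.

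TAATTA was found at 28 members (9.43%, 6.36 to 13.3), against 8.50% (7.78 to 9.28) of weaker intronic regions, 6.54% of distal intergenic and 7.01% of promoter regions, and 7.58% of all pooled regions. The flanks of the members held it in 9.09% and 8.42%. The longer TTAATTAA, which contains TAATTA, was found at 6 members (2.02%) and at 1.65% of weaker regions. Taken over all members, then, the homeodomain core was about as frequent as in the DNA around them. The 28 members with it had signals from 50.26 to 105.4 with a median of 58.8, and 6 of them were in the reproducible list.

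Because members are GC-rich and TAATTA is AT-only, the same share was read by GC content. Under 45% GC, 22 of 123 members held TAATTA (17.9%, 11.6 to 25.8), against 405 of 4197 weaker intronic regions (9.65%, 8.77 to 10.6), 10.7% of distal intergenic and 11.8% of promoter regions. In their flanks it was 10.6% and 7.32%. At 45% GC or more the shares were 3.45% (1.28 to 7.35) of 174 members and 4.65% (3.55 to 5.97) of 1248 weaker regions. The 45% boundary was chosen after the values of the 5 classes were seen. In each library taken alone, with its own 2129 strongest regions under the same location rule, the share under 45% GC was 14.2% (9.22 to 20.5) for replicate 1 and 11.8% (7.03 to 18.2) for replicate 2. Both intervals reach the share of the weaker regions. The flanks of these single-library regions held TAATTA in 10.5% and 13.0% for replicate 1, and in 9.72% and 4.86% for replicate 2.

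TGATAA, the site read by GATA factors of the intestine and hypodermis, was found at 10 members (3.37%, 1.63 to 6.10), at 10.8% (9.99 to 11.7) of weaker intronic regions, and at 6.31% of distal intergenic and 7.498% of promoter regions at the same signal. Either flank of the members held it in 15.5%. This hexamer was not among the planned readings, which covered GAGAGA and TAATTA. In introns of 1000 bp or more the shares were 1.33% (0.276 to 3.85) of members and 10.1% of weaker regions. In shorter introns they were 9.72% (3.999 to 19.0) and 11.6%, so the member interval there included the weaker share. Under 45% GC the shares were 4.07% (1.33 to 9.23) and 12.6% (11.6 to 13.6), and at 45% GC or more 2.87% and 4.81%. In each library alone, the share under 45% GC was 9.26% (5.28 to 14.8) for replicate 1, an interval that includes the weaker regions' 12.6%, and 6.94% (3.38 to 12.4) for replicate 2. Both are above the members' share.

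Host genes were read by lists of known function. Over all genes, 5.17% of intronic regions reached signal 50. Among genes of GABA neurons, 2 of 17 intronic regions did (11.8%, 1.46 to 36.4), the ones in unc-25 and lim-6. The unc-25 region lay in intron 3 at position 12944830 of chromosome III, with a pooled signal of 68.5, and its signals of 20.02 in replicate 1 and 44.8 in replicate 2 were uneven. The lim-6 region lay in intron 5 at position 1077118 of chromosome X. It was found in replicate 2 alone, as given above. The strain carries lim-6 in its transgene as well as in its genome, and what the added copies do to the signal was not tested. Ion channel genes had 4 of 125 intronic regions at the threshold (3.20%, 0.879 to 7.99), in trpa-1 (97.4), slo-1 (the BK potassium channel, 54.4) and kvs-5 (50.7). Ligand-gated receptor genes had 0 of 47, which allows up to 7.55%.

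Genes of signalling pathways had 23 of 267 (8.61%, 5.54 to 12.6) in 19 genes. Among them, mom-1 had 103.8, lin-17 (a Frizzled receptor) 89.1, with 42.6 in replicate 1 and 51.3 in replicate 2, and lit-1 (a Nemo-like kinase) 82.7, with 32.7 and 48.3. mpk-1, the ERK kinase, had 82.4 with 40.6 in replicate 1 and 22.8 in replicate 2, so its libraries were uneven. Axon guidance and adhesion genes had 15 of 245 (6.12%, 3.47 to 9.90), led by cam-1 (a Ror-type receptor, 80.03), unc-73 (the Trio guanine nucleotide exchange factor, 71.6) and dgn-1 (dystroglycan, 68.9). Synapse and secretion genes had 4 of 61 (6.56%), in unc-104 (the KIF1A-type kinesin, 76.5, at a pseudogene with 52.0% of 31-mers unique), cla-1 (an active zone protein, 59.8), snt-3 (a synaptotagmin, 56.5) and unc-31 (the CAPS protein, 51.4).

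Homeobox genes had 4 of 56 (7.14%, 1.98 to 17.3). Besides lim-6 these were zfh-2 (58.6), zag-1 (57.04) and ceh-62 (53.9), each with regions in both libraries. Nuclear hormone receptor genes had 5 of 80 (6.25%), the strongest in nhr-27 (72.0), nhr-19 (61.5) and daf-12 (60.4). Other transcription factor genes had 7 of 128 (5.47%), among them sma-9 (a Schnurri homologue, 79.3), lin-14 (67.2), lin-29 (64.7), tra-1 (60.2) and daf-16 (57.98). Muscle genes had 3 of 62 (4.84%), in vab-10, spc-1 and the myosin gene unc-54, and chromatin genes 2 of 39 (5.13%), in egl-27 (85.4) and set-25 (61.5). The chromatin list is incomplete. It does not hold let-526, whose 5 members and 3 weaker intronic regions are therefore outside that count. Adding them would raise the share, and the interval with them was not computed. ASE neuron genes had 1 of 14, which was lim-6. With the lists as drawn up, the interval of each but that of signalling genes included 5.17%. For chromatin genes this may not hold once let-526 is added. The lists also share genes, so no list is called particular from these counts.

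**Figure D5:**
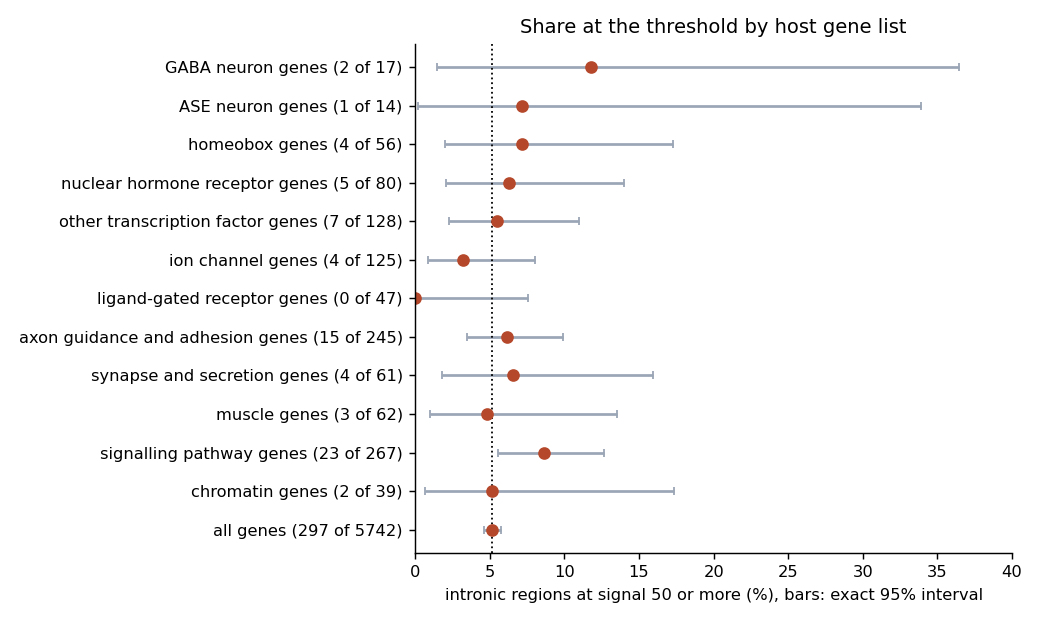
Share of intronic regions with signal 50 or more, by list of host genes, with the number of such regions and of all intronic regions in parentheses. Points are shares in percent, bars exact 95% intervals over regions and the dotted line the share over all genes (5.17%). Signalling pathway genes are at 8.61%, ligand-gated receptor genes at 0 of 47.

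By chromosome, 57 members lay on I, 51 each on II and III, 53 on IV, 40 on V and 45 on X. Per Mb of intronic sequence outside promoter windows this was 9.80 on V, 11.1 on X and between 12.6 and 15.5 on the others. On X lay 15.2% (11.3 to 19.7) of members and 15.7% of weaker intronic regions, whereas distal intergenic regions of the same signal were on X in 107 of 428 cases. Over the genome, intronic sequence of this kind covers 24.0 Mb and held 12.4 members per Mb, against 17.3 per Mb in distal intergenic and 32.3 in promoter sequence. At 274 members (92.3%, 88.6 to 95.03), 90% or more of the 31-mers around the summit occurred once in the genome, against 86.4% of weaker intronic regions.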

How the data were processed

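Per the deposited notes, the authors made relaxed lists of peaks and background from each library's alignment, and from both pooled, with a control, as input to an irreproducible discovery rate test. The authors' signal column of these narrowPeak files, positive and not whole, was identified from the file layout, and its unit is not known. Its median over members was 59.9 in the pooled list, 30.2 in replicate 1 and 31.1 in replicate 2, so pooling did not average it. Its scale is comparable only within a list. Aligner, peak caller, versions and read depth: not given in the sources used here. Precision from depth is therefore not stated.

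Coordinates are 1-based on ce11 (WBcel235), with Ensembl release 115 genes; ce10 lists were not used. Library values come from the overlapping library region (1 bp or more) of nearest summit. A host intron is the shortest annotated one holding the summit. Motifs and GC content were read within 100 bp of the summit, uniqueness from 31-mers on both strands, with Python 3.11.15, numpy 2.4.6, pandas 2.3.3, scipy 1.17.1 and matplotlib 3.10.9. Scripts were tested on simulated data. No test was made over regions, which are not replicates. Both libraries form 1 group.

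Members and gene lists were chosen with earlier results of these data known. Named genes are hosts of the 20 strongest members, hosts of 3 or more, up to 6 per list, the 3 on either side of the threshold, the 3 highest and lowest library ratios and the longest intron. Sequences are from the strongest 8 members and up to 6 with each hexamer, beside those of the GABA list, with 1 chromosome left out. Alternatives are given in the closing section.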

Additional observations from a re-analysis of the deposited data

How the results depend on the processing

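The number of intronic regions followed the rule's boundaries. It was 743 at a signal threshold of 40, 55 at a threshold of 80 and 192 with a promoter window of 2000 bp upstream to 1000 bp downstream, against 297. Exons of any biotype (268), no drop near noncoding RNA genes (371) and merged sites (284) kept it within 1.5 times. Each library alone gave 311 to 340 regions, of which 60.5% and 59.7% overlapped a member. The share with GAGAGA was 24.6% within 50 bp of the summit, and, chosen after seeing the data, 43.1% in introns of 1000 bp or more and 54.5% at a threshold of 80. It was 30.9% to 32.2% in single libraries. A first intron of any transcript held 41.8% of members, and the first-intron share in introns of 1000 bp or more was 35.6%. In single libraries, mean GC content was 45.5% to 45.9%, TAATTA 7.40% to 8.82%, unique regions 91.3% to 94.1%, median intron length 2114 to 2851 bp, first introns 24.4% to 25.3% and regions on X 14.4% to 16.7%. In all, 39 alternative values, among them several given above, moved by less than the interval or SD over regions (or 1.5 times for counts). For intron length and GC content this limit is loose. The SD over members was 4306 bp and 7.60%. Either exceeds the gap between members and weaker intronic regions (medians of 2818 and 1091 bp, means of 46.6% and 39.3%). Values within it do not show that those 2 results are stable. No paired analysis was possible because there is 1 group. Limits are the lack of an untagged control, of read depth and of more than 2 libraries.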

Other observations

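Some members lay at RNA genes that the location rule does not drop. The summit was inside a noncoding gene at 29 members (9.76%, 6.64 to 13.7), against 3.53% (3.05 to 4.05) of weaker intronic regions. At the same signal this held for 16.1% of distal intergenic and 8.37% of promoter regions, and for 6.19% of all pooled regions. Of the 29 members, 24 lay at genes of the ncRNA class, to which rpr-1 and the srpr genes named below also belong. Another 3 lay at antisense RNA genes, such as the pair in let-526. These were chosen after their values were seen: 2 members in ints-8 (186 and 63.8) lay at rpr-1, the RNA of ribonuclease P, 2 in klp-6 (98.1 and 92.0) at srpr-2.2 and 2 in ckb-2 (86.9 and 60.4) at srpr-1.2, both RNAs of the signal recognition particle. Outside introns, mrpr-1, the RNA of ribonuclease MRP, had a region of 172 and srpr-3 one of 84.7, and srpr-1.1 and srpr-2.1 had 68.9 and 91.3. All 7 annotated genes of these families thus had a pooled region at signal 50 or more within 250 bp. RNA polymerase III makes these RNAs in other animals. The srpr copies are near-identical: only 37.4% of the 31-mers at the stronger klp-6 region and 35.1% at that of ckb-2 were unique, so reads of the copies cannot be told apart there, while rpr-1 was fully unique.

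Shares of 3 more hexamers, picked after the data were seen, were also read. AGACGC was found at 16.2% (12.2 to 20.9) of members, 5.55% of weaker intronic regions and 3.70% and 2.69% of the members' flanks. Distal intergenic regions of the same signal held it in 21.5% and promoter regions in 17.3%. CTCTCC, which can overlap GAGAGA on the other strand, was found at 26.3% of members, 9.29% of weaker intronic, 27.6% of distal intergenic and 18.9% of promoter regions. CACACA was found at 24.6%, 12.05%, 30.1% and 20.5% of these. The other motifs searched differed little between members and weaker intronic regions. CACGTG was found at 4.71% and 3.95%, CAGCTG at 3.37% and 4.08%, and TGACTCA at 1.35% and 1.51%. No difference between region groups was tested. The gene unc-119, whose mutation the strain carries and which was chosen after its values were seen, had a member in its first intron (59.95 pooled, 32.9 in replicate 1 and 29.4 in replicate 2), with GAGAGA 0.5 bp from the summit.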
